A study of Mus musculus with 6 samples.

Results

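Polyamine metabolism is represented here by 8 genes, Odc1, Amd1, Amd2, Srm, Sms, Smox, Sat1 and Azin1, in fast-twitch muscle of mice with a deletion of Akt1 and Akt2 directed to muscle fibres. They were chosen by symbol as the core enzymes that make and break down polyamines together with the antizyme inhibitor, and are 8 of the 24411 genes in the table of counts. All 8 passed the filter on low counts and are among the 12892 genes tested. RNA of the extensor digitorum longus (EDL), a fast-twitch muscle of the hind limb, was sequenced from 3 mAktDKO mice (Mlc1f-Cre:Akt1/2-floxed) and 3 control mice (Akt1/2-floxed), all C57BL/6J and at the age of 50 weeks. Both groups carried the floxed Akt1 and Akt2 alleles, and only the mAktDKO mice carried Cre, knocked in at Mlc1f, a fast myosin light chain gene of myofibres. Recombination is therefore directed to myofibres, and Akt1 and Akt2 in the other cells of the muscle were not measured apart. The control mice carried no Cre, so the Mlc1f knock-in and the deletion of Akt cannot be told apart. The columns of the control mice are numbered 2 to 4, and these numbers are used here. The comparison asks which transcripts of the pathway differed in the muscle of mAktDKO mice, in which the deletion targets Akt, a kinase that promotes muscle growth in response to insulin and IGF-1.

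Polyamines are small, positively charged molecules that bind RNA and DNA and are needed for translation and cell growth. Ornithine decarboxylase makes putrescine, and spermidine synthase and spermine synthase extend it to spermidine and spermine with aminopropyl groups taken from decarboxylated S-adenosylmethionine. Antizyme, which is translated when polyamines are abundant, sends ornithine decarboxylase to the proteasome and lowers polyamine uptake, and antizyme inhibitor binds antizyme and releases the enzyme. In skeletal muscle, ornithine decarboxylase and S-adenosylmethionine decarboxylase are known to respond to androgens and to hypertrophic growth. Much of their control is by translation and protein turnover, which RNA counts do not measure.

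The most uneven rows of the pathway were those of S-adenosylmethionine decarboxylase, the enzyme that makes the aminopropyl donor, and their sequences show what those rows can tell. Amd1 has 8 exons and lies at chr10:40287458-40302186 on the minus strand of mm10. Amd2 is a single exon gene at chr10:35708675-35711892 on the same strand, 4.58 Mb away. Their longest transcripts, 3204 and 3218 bases, align with 99.1% identity, with 14 mismatches and 14 gap bases. Both coding sequences have 1002 bases, and 1001 of these are identical. The only difference is G796C (Amd1 base, coding position counted from the A of the start codon as 1, Amd2 base), in codon 266 of 334, and it changes the amino acid. The stretch from coding position 766 to 825 is shown because it holds this base, which is in capitals:
Amd1: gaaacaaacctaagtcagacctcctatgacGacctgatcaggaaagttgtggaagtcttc
Amd2: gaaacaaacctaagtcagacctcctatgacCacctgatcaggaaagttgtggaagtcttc
The reads were 37 bases long. Of the 37-base windows of the Amd2 transcript, 2839 of 3182 (89.2%) also occur in Amd1, so a single read from most of the transcript fits both genes, although its mate may tell them apart.

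The genes part company upstream of their start sites. The RefSeq promoter table (GRCm38.p6) holds windows for 6 of the 8 genes, from 250 bases before the start to 50 after it; Srm and Azin1 are missing. The Amd1 and Amd2 windows share a run of 48 bases that begins at or next to the annotated start, whereas only 18 of the 60 bases before that run are the same in both genes. Those 60 bases are printed in lower case and the first 30 bases of the shared run in capitals, Amd1 from chr10:40302157-40302246 and Amd2 from chr10:35711862-35711951, both on the minus strand:
Amd1: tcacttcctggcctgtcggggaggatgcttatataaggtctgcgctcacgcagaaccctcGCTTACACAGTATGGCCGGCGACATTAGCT
Amd2: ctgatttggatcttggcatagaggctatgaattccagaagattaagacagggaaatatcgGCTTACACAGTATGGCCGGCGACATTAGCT
The transcripts therefore begin alike below promoters of different sequence.

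Levels are in CPM, the counts of a gene relative to all counts of the mouse, and scaled by TMM, a scaling that assumes most genes are unchanged. Akt2, the check of the labels, was at 51.3, 49.1 and 52.7 CPM in mAktDKO mice and 172.1, 133.1 and 142.6 CPM in control mice (log2 fold change -1.55; adjusted p = 0.000923, edgeR), and Akt1 at 51.4 to 58.9 against 65.5 to 66.5 CPM. The change of Akt1, -0.25, did not pass the threshold (adjusted p = 0.115, edgeR), and was -0.11 by library totals alone (adjusted p = 0.489). Total counts were 13738795 to 15445523 per mouse. Markers of fast fibres, the main cells of EDL, were all detected, and their sum was 103000 to 115700 CPM in mAktDKO mice against 117900 to 127200 CPM in control mice, with 8 of 8 markers below 0 and a median log2 fold change of -0.21. The sum of the 3 satellite cell markers was 6.47 to 8.03 against 5.75 to 6.27 CPM, although only 1 of the 3 had groups that did not overlap and none passed the threshold (smallest adjusted p = 0.179, edgeR). The sums of leukocyte markers were 85.0 to 102.8 against 61.0 to 85.4 CPM, and those of fibro-adipogenic markers 18330 to 21770 against 7310 to 18430 CPM. Both sums overlapped between groups, with median log2 fold changes of 0.46 and 0.53. Endothelial (412.7 to 487.4 against 343.1 to 447.5 CPM) and Schwann cell sums (168.5 to 228.8 against 151.4 to 179.7 CPM) overlapped too, with medians of 0.16 and 0.24. Adipocyte (19.8 to 66.5 against 13.8 to 33.1 CPM), slow fibre (679.8 to 1317 against 607.4 to 884.2 CPM) and red blood cell markers (145.9 to 312.8 against 108.7 to 163.5 CPM) also overlapped between groups, with median log2 fold changes of 1.10, 0.44 and 0.77. Of the markers listed, the row of Hbb-bs alone was at 0 in any mouse, namely in all 3 control mice. It held 23.46, 9.225 and 10.01 CPM in the mAktDKO mice (adjusted p = 0.018, edgeR), which misses the threshold. Hbb-bt, another red blood cell marker, was at 13.21, 13.13 and 8.997 CPM in control mice 2, 3 and 4. In mAktDKO mice 1, 2 and 3 it was at 23.08, 16.23 and 9.737 CPM (adjusted p = 0.318, edgeR). Whether reads were split between the rows of these genes was not tested. The Hbb-bs row alone therefore does not show that the gene was silent in control mice. In whole muscle, fewer fibres and less RNA per fibre cannot be told apart, and the part that other cells have in these values was not tested. Control mouse 2 stood apart from the other mice, at 43.7 on a first principal component that held 44.9% of the variance and on which the others lay between -27.4 and 6.2.

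Odc1 encodes ornithine decarboxylase, which makes putrescine, and its RNA level did not differ detectably. Odc1 (chr12:17544794-17551505, plus strand, 12 exons) was at 76.3, 95.6 and 82.4 CPM in mAktDKO mice 1, 2 and 3, and at 102.9, 65.6 and 73.1 CPM in control mice 2, 3 and 4. The 3 mAktDKO mice lay inside the range of the control mice. The log2 fold change of mAktDKO over control mice was 0.07 ± 0.16 (SE, n = 3 and 3) with a 95% interval of -0.29 to 0.44 (adjusted p = 0.807, edgeR's quasi-likelihood test). Control mouse 2 was the highest of all, and without it the change was 0.29 ± 0.11 (adjusted p = 0.189). Scaled by library totals alone, which moves the median of all genes to 0.16, the changes were 0.22 for Odc1, 0.37 for Srm and 0.29 for Smox, none with an adjusted p under 0.05. Of the 37-base windows of Odc1, 48.7% also occur in other genes, most of them in its processed pseudogene Gm7993 in GENCODE M21, but the estimated counts of Odc1 were whole numbers in all 6 mice, 899 to 1596, so they show no read split between genes.

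No gene of the 8 passed the threshold used here, an adjusted p under 0.01, in either direction by edgeR, and none did by DESeq2, which called 3.15% of all its genes. The edgeR background was low as well, with 3 of 12892 genes (0.0233%) under 0.01, which were Akt2, Aldh1a1 and Grb14, and 1.18% under 0.05. At an unadjusted p under 0.05, 3 of the 8 genes were listed by edgeR, Azin1 and Sat1 higher and Amd2 lower in mAktDKO mice, beside 24.5% of all genes tested. DESeq2 listed Azin1 and Amd2 at that level, beside 21.9% of the 10440 genes to which it gave an adjusted p. The same 3 genes were those whose groups did not overlap, beside 31.1% of all genes. These shares of the 8 genes are close to the background, and the values below describe single genes. Across the 8 genes, 6 had a log2 fold change above 0 and 2 below, with a median of 0.19, where the median of all genes was 0.02.

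**Figure D1:**
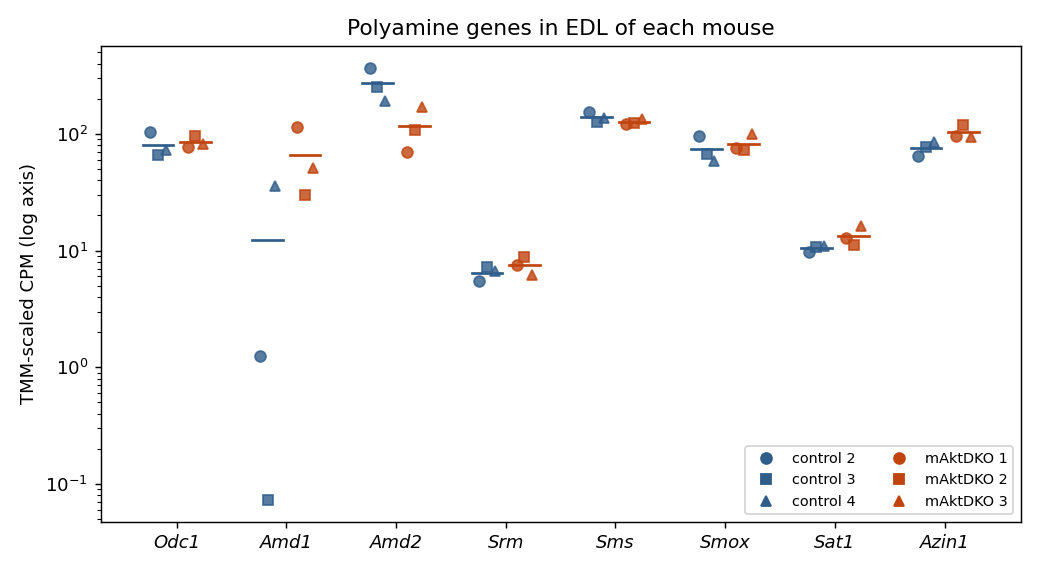
Level of each gene in each of the 6 mice, in TMM-scaled CPM on a log axis, with control mice in blue, mAktDKO mice in orange and a line at each group mean (n = 3). Amd1 spans from 0.073 to 115.0 CPM, a far wider range than any other gene, while Sms stays between 122.4 and 152.5 CPM.

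Amd2 was lower in the mAktDKO mice and Amd1 was higher on average, in rows whose transcripts share most of their sequence. The Amd2 row held 70.3, 107.2 and 169.4 CPM in mAktDKO mice 1, 2 and 3, and 369.4, 252.6 and 192.3 CPM in control mice 2, 3 and 4. Every mAktDKO mouse was below every control mouse, by 22.9 CPM at the closest. The group means were 115.6 ± 50.1 and 271.4 ± 90.0 CPM (SD, n = 3 each), and the log2 fold change was -1.23 ± 0.32 (SE; adjusted p = 0.0745, edgeR).

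The Amd1 row held 115.0, 30.1 and 50.6 CPM in mAktDKO mice 1, 2 and 3, and 1.26, 0.073 and 35.5 CPM in control mice 2, 3 and 4. Control mouse 4 was above mAktDKO mouse 2, so the groups overlapped, and control mouse 3, with an estimated count of 0.91, was under the floor of 3 counts that this depth can show. The fitted log2 fold change was 2.42 ± 1.08 (SE) with a 95% interval of -0.01 to 4.85 (adjusted p = 0.204, edgeR), and without control mouse 4 it was 6.57 (adjusted p = 0.031).

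The estimated counts of both rows had fractions, and their sum was a whole number in every mouse. The sum was 2922, 2292 and 3209 in mAktDKO mice 1, 2 and 3, and 5302, 3463 and 3014 in control mice 2, 3 and 4. The part of the sum given to Amd1 was 62.1%, 21.9% and 23.0% in the mAktDKO mice and 0.337%, 0.0263% and 15.6% in the control mice. These shares differ more between mice of one group than the sums do, and which gene the RNA came from was not tested.

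Taken as one transcript, S-adenosylmethionine decarboxylase was at 185.3, 137.3 and 220.0 CPM in mAktDKO mice 1, 2 and 3, and at 370.7, 252.6 and 227.9 CPM in control mice 2, 3 and 4. The groups did not overlap, but mAktDKO mouse 3 and control mouse 4 were close. The means were 180.9 ± 41.6 and 283.7 ± 76.3 CPM (SD, n = 3 each). The log2 fold change was -0.65 ± 0.21 (SE) with a 95% interval of -1.12 to -0.18 (adjusted p = 0.114, edgeR), which misses the threshold, and DESeq2 gave an adjusted p of 0.0116. The summed row was lower in mAktDKO mice in each fit with 1 mouse left out, from -0.83 to -0.41 on the log2 scale, and the value nearest to 0 was the one without control mouse 2. This sum was chosen as an alternative for near-identical genes with results of these data known.

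**Figure D2:**
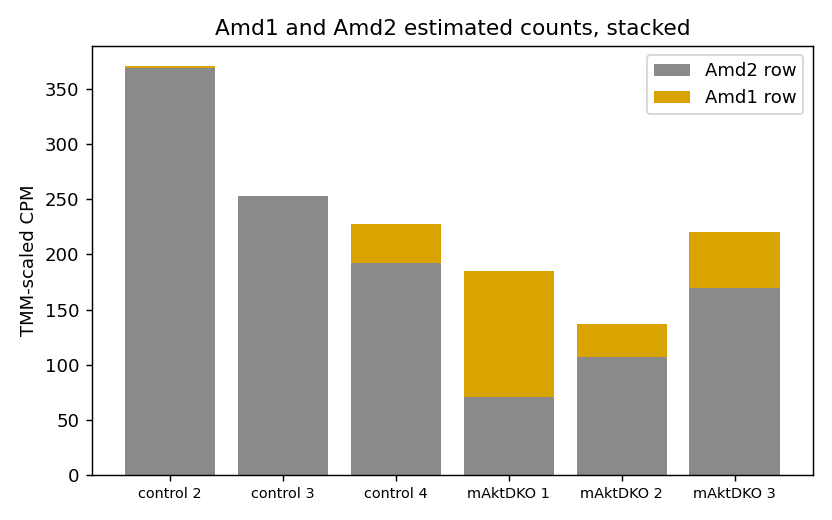
Stacked bars of the Amd2 row (grey) and the Amd1 row (yellow) in each mouse, in TMM-scaled CPM from 0. The Amd1 part runs from under 0.1 CPM in control mouse 3 to 115.0 CPM in mAktDKO mouse 1, and the total from 137.3 CPM in mAktDKO mouse 2 to 370.7 CPM in control mouse 2.

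The aminopropyl transferases, which use that donor, showed no detectable difference. Srm (chr4:148591503-148594993, plus strand, 7 exons), spermidine synthase, was at 7.55, 8.81 and 6.17 CPM in mAktDKO mice 1, 2 and 3, and at 5.45, 7.22 and 6.65 CPM in control mice 2, 3 and 4. The groups overlapped, with control mouse 2 lowest of all, and the log2 fold change was 0.22 ± 0.17 (SE; adjusted p = 0.447, edgeR), or 0.09 without mAktDKO mouse 2 and 0.12 without control mouse 2. Sms (chrX:157443855-157492287, minus strand, 11 exons), spermine synthase, was at 122.4, 122.8 and 133.4 CPM in the mAktDKO mice and at 152.5, 125.8 and 135.6 CPM in the control mice. It was the steadiest gene of the 8, with a highest value 1.25 times its lowest, and its log2 fold change was -0.13 ± 0.09 with a 95% interval of -0.34 to 0.08 (adjusted p = 0.404, edgeR). Without control mouse 2 the change of Sms was -0.05, and without control mouse 3 -0.19. Scaled by library totals alone, it was 0.01, beside a shift of the median of all genes to 0.16. Sms-ps, a processed copy, shares 28.9% of the 37-base windows of Sms.

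Spermine oxidase, which returns spermine to spermidine, varied between mice more than between groups. Smox (chr2:131491496-131525922, plus strand, 7 exons) was at 75.1, 72.1 and 99.5 CPM in mAktDKO mice 1, 2 and 3, and at 96.3, 67.0 and 58.1 CPM in control mice 2, 3 and 4. One mouse of each group, mAktDKO mouse 3 and control mouse 2, stood above the others. The log2 fold change was 0.15 ± 0.19 (SE; adjusted p = 0.637, edgeR), from -0.02 without mAktDKO mouse 3 to 0.39 without control mouse 2 (adjusted p = 0.174).

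Sat1, spermidine/spermine acetyltransferase, starts the export and breakdown of polyamines by acetylating them. It lies at chrX:155213132-155216449 on the minus strand, with 6 exons. Sat1 was at 12.8, 11.2 and 16.1 CPM in mAktDKO mice 1, 2 and 3, and at 9.79, 10.8 and 11.0 CPM in control mice 2, 3 and 4. The groups did not overlap, but mAktDKO mouse 2 was only 0.239 CPM above control mouse 4. The means were 13.4 ± 2.5 and 10.5 ± 0.6 CPM (SD, n = 3 each), 27.2% apart, with a log2 fold change of 0.34 ± 0.15 (SE; adjusted p = 0.189, edgeR). Without mAktDKO mouse 3 the change was 0.18.

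Azin1, antizyme inhibitor 1, resembles ornithine decarboxylase but has no enzyme activity and binds antizyme instead. It lies at chr15:38487427-38519266 on the minus strand, with 12 exons, and shares no 37-base window with another gene. Azin1 was at 96.0, 118.2 and 94.0 CPM in mAktDKO mice 1, 2 and 3, and at 64.1, 76.6 and 84.8 CPM in control mice 2, 3 and 4. All 3 mAktDKO mice were above all 3 control mice, with 9.26 CPM between the nearest. The means were 102.7 ± 13.4 and 75.2 ± 10.4 CPM (SD, n = 3 each), a level 36.7% higher in mAktDKO mice. The log2 fold change was 0.45 ± 0.13 (SE) with a 95% interval of 0.17 to 0.74 (adjusted p = 0.0867, edgeR; 0.0216 by DESeq2), and it stayed between 0.34 and 0.54 when any 1 mouse was left out. Neither p passed 0.01. The summed markers of every cell type listed other than fast fibres were also higher on average in the mAktDKO mice. Those of adipocytes, slow fibres and satellite cells were highest in mAktDKO mouse 2, as Azin1 was. Endothelial, leukocyte, Schwann cell and red blood cell sums were instead highest in mAktDKO mouse 1, and the fibro-adipogenic sum in mAktDKO mouse 3. The part of these cells in the level of Azin1 was not tested.

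The antizymes, which Azin1 binds, lay in the other direction. Oaz1 (chr10:80826656-80829290) encodes antizyme 1, and was at 187.1, 175.4 and 180.2 CPM in mAktDKO mice 1, 2 and 3, and at 219.7, 211.4 and 205.2 CPM in control mice 2, 3 and 4. The groups did not overlap and both were tight, and the log2 fold change was -0.23 ± 0.08 (SE; adjusted p = 0.119, edgeR). Oaz2, antizyme 2, was at 128.8, 119.4 and 128.8 CPM in the mAktDKO mice and at 156.1, 144.7 and 127.8 CPM in the control mice. Here control mouse 4 lay among the mAktDKO mice (log2 fold change -0.19; adjusted p = 0.246, edgeR), and without control mouse 2 the change was -0.12. The row of Oaz3, another antizyme, held no count in any mouse, and antizyme inhibitor 2 (Azin2) was at 0.951 to 1.68 CPM, with a log2 fold change of -0.40 (edgeR's adjusted p = 0.411). None of the 3 antizyme-related genes tested passed the threshold. Scaled by library totals alone, Oaz1 was at -0.09 (adjusted p = 0.448, edgeR) and Oaz2 at -0.05, beside a median of all genes of 0.16.

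The ratio of Oaz1 to Azin1 CPM within a mouse was 1.95, 1.48 and 1.92 in mAktDKO mice 1, 2 and 3, and 3.43, 2.76 and 2.42 in control mice 2, 3 and 4. The means were 1.78 ± 0.26 and 2.87 ± 0.51 (SD, n = 3 each). That the groups of the ratio do not overlap follows from Azin1 being higher and Oaz1 lower without overlap, so it is no further result. The ratio is a description without a test, and it compares RNA and not protein.

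**Figure D3:**
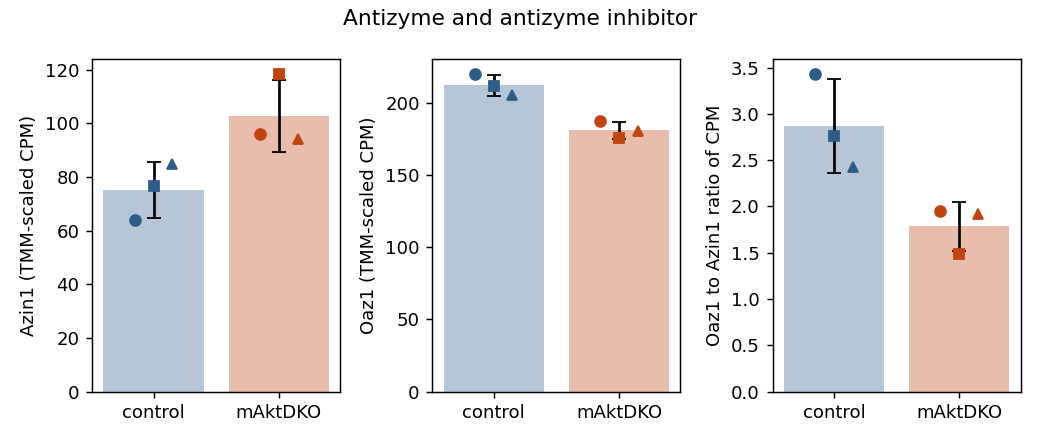
Bars show the group means of Azin1, of Oaz1 (both TMM-scaled CPM) and of their ratio within each mouse, with the SD (n = 3) and 1 point per mouse. Azin1 is higher and Oaz1 lower in all mAktDKO mice, and the ratio reaches at most 1.95 in mAktDKO mice and at least 2.42 in control mice.

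Divided by the length of the longest coding transcript, levels can be set between genes. In control mice the summed Amd rows were highest, at 70.9 to 115.2 CPM per kb, above Sms at 33.8 to 41.0, Odc1 at 29.7 to 46.6 and Smox at 25.3 to 41.9 CPM per kb. Those 3 genes overlapped one another and were above Azin1 (13.2 to 17.4), Sat1 (8.42 to 9.43) and Srm (4.08 to 5.40 CPM per kb), whose ranges did not overlap. The mAktDKO mice had the same lower end of the order, with Azin1 at 19.3 to 24.3, Sat1 at 9.64 to 13.9 and Srm at 4.61 to 6.58 CPM per kb. At the upper end the summed Amd rows, at 42.7 to 68.4 CPM per kb, now touched the ranges of Odc1 (34.6 to 43.3) and Smox (31.3 to 43.3 CPM per kb), and in mAktDKO mouse 2 the level of Odc1 was above that of the Amd rows. Srm, the lowest per kb, was thus several times below Sms, which acts on its product. Lengths come from one annotation, and the transcript made in this muscle can differ.

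Added over Odc1, Amd1, Amd2, Srm and Sms, the synthesis genes came to 391.5, 364.5 and 441.9 CPM in mAktDKO mice 1, 2 and 3, and to 631.5, 451.2 and 443.3 CPM in control mice 2, 3 and 4. The last 2 control mice were near mAktDKO mouse 3, and the Amd rows made most of the difference between groups. Smox and Sat1, which break polyamines down, came to 87.9, 83.3 and 115.6 CPM in the mAktDKO mice and to 106.1, 77.8 and 69.0 CPM in the control mice, with overlap. These sums carry no test.

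A further 27 genes of the pathway were listed by role, of which 22 were tested. None passed the threshold by edgeR, while DESeq2 called 2, Dohh and Atp13a3, beside its 3.15% of all genes. By edgeR, 9 had an unadjusted p under 0.05, 3 higher and 6 lower in mAktDKO mice, where 24.5% of all genes had one. DESeq2 tested 25 and gave 7 of them such a p, beside 21.9% of the 10440 genes to which it gave an adjusted p. The 25 include Sat2, to which DESeq2 gave no adjusted p, so these shares cover unlike sets of genes. Groups did not overlap in 11, 4 higher and 7 lower, where they did not in 31.1% of all genes. Their median log2 fold change was -0.14.

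Hypusine is an amino acid made from spermidine on the translation factor eIF5A, by deoxyhypusine synthase (Dhps) and then deoxyhypusine hydroxylase (Dohh). Dohh (chr10:81384428-81388352) was at 19.0, 14.9 and 16.9 CPM in mAktDKO mice 1, 2 and 3, and at 29.5, 24.4 and 24.5 CPM in control mice 2, 3 and 4. The groups were well apart, and the log2 fold change was -0.63 ± 0.12 (SE), with an adjusted p of 0.0506 by edgeR and 0.00339 by DESeq2. Over the alternatives with all 6 mice or 1 left out, edgeR gave Dohh a change of -0.72 to -0.49. Eif5a2, the less abundant eIF5A gene, lay in the other direction, at 5.14, 4.91 and 5.69 CPM in the mAktDKO mice against 2.66, 4.01 and 3.63 CPM in the control mice (log2 fold change 0.61; adjusted p = 0.109, edgeR). Eif5a itself, at 157.6 to 162.6 CPM in mAktDKO mice and 170.8 to 174.1 CPM in control mice, lay at a log2 fold change of -0.11 (edgeR's adjusted p = 0.335).

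Of the 4 transport genes, 3 had log2 fold changes above 0. Atp13a3 (chr16:30312423-30405975), a P5B-type ATPase of the polyamine transport system, was at 131.8, 123.1 and 140.2 CPM in mAktDKO mice 1, 2 and 3, and at 93.9, 105.7 and 97.5 CPM in control mice 2, 3 and 4. All mAktDKO mice were clearly above the control mice, with a log2 fold change of 0.41 ± 0.08 (SE), an adjusted p of 0.0539 by edgeR and 0.00603 by DESeq2. Slc18b1, a vesicular polyamine transporter, was at 5.83, 7.31 and 6.03 CPM in the mAktDKO mice and at 4.27, 4.16 and 5.37 CPM in the control mice (log2 fold change 0.48; adjusted p = 0.140, edgeR). Its groups did not overlap. The lysosomal polyamine exporter Atp13a2 lay at -0.23 on the log2 scale (adjusted p = 0.278, edgeR).

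The salvage of methylthioadenosine, the by-product of both aminopropyl transfers, returns it to methionine. Apip, a dehydratase of that route, was at 8.31, 9.82 and 9.67 CPM in mAktDKO mice 1, 2 and 3, and at 16.3, 13.5 and 11.3 CPM in control mice 2, 3 and 4, a log2 fold change of -0.56 ± 0.15 (SE; adjusted p = 0.0822, edgeR). Adi1, the dioxygenase of its last steps, was at 26.1, 21.9 and 28.3 CPM in the mAktDKO mice and at 39.0, 30.1 and 31.0 CPM in the control mice (log2 fold change -0.39; adjusted p = 0.126, edgeR), and by library totals alone the change of Adi1 was -0.26. Neither gene had overlapping groups. Mtap, which starts the route, was at 13.5 to 14.5 CPM in mAktDKO mice against 11.0 to 13.3 CPM in the control mice, on the other side of 0 (log2 fold change 0.22; adjusted p = 0.246, edgeR).

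Oat, ornithine aminotransferase, uses the ornithine that Odc1 also uses. It was at 146.3, 140.3 and 150.6 CPM in mAktDKO mice 1, 2 and 3, and at 176.1, 158.5 and 177.7 CPM in control mice 2, 3 and 4. The groups did not overlap (log2 fold change -0.23 ± 0.08, SE; adjusted p = 0.137, edgeR), and by library totals alone the change was -0.09. Paox, the peroxisomal oxidase of acetylated polyamines, and Sat2, a relative of Sat1, had changes of -0.07 and 0.19 (adjusted p = 0.876 and 0.750, edgeR). The groups of both overlapped.

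**Figure D4:**
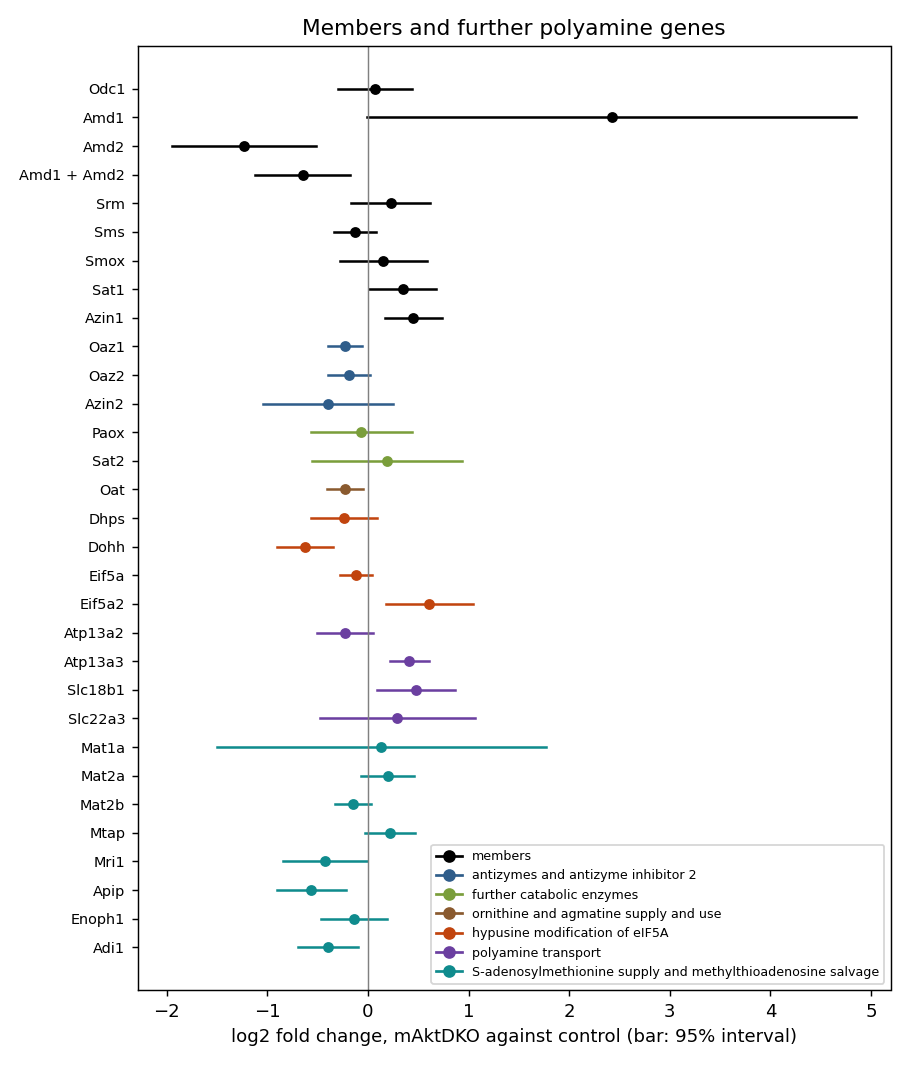
Log2 fold change of mAktDKO over control mice (points) with 95% intervals (bars, edgeR, n = 3 and 3) for the 8 genes, the summed Amd rows and the 22 further genes tested, coloured by role. The interval of Amd1, from -0.01 to 4.85, is the widest, and those of Azin1, Atp13a3 and Eif5a2 lie above 0 while those of Amd2, Dohh and Apip lie below it.

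Control mouse 2, which stood apart over all genes, had the highest level of Odc1, Amd2 and Sms among all 6 mice and the lowest of Srm, Sat1 and Azin1. Its sums of fibro-adipogenic (7310 CPM), leukocyte (61.0 CPM) and Schwann cell markers (151.4 CPM) were the lowest of the 6 mice. Its other marker sums were neither the lowest nor the highest. Without this mouse, 4 of the 8 genes had an unadjusted p under 0.05 by edgeR (19.3% of all genes did), namely Odc1, Smox and Azin1 higher and Amd2 lower, and Sat1 no longer did. The changes then were 0.35 for Azin1 (adjusted p = 0.143) and -0.95 for Amd2 (adjusted p = 0.124).

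**Figure D5:**
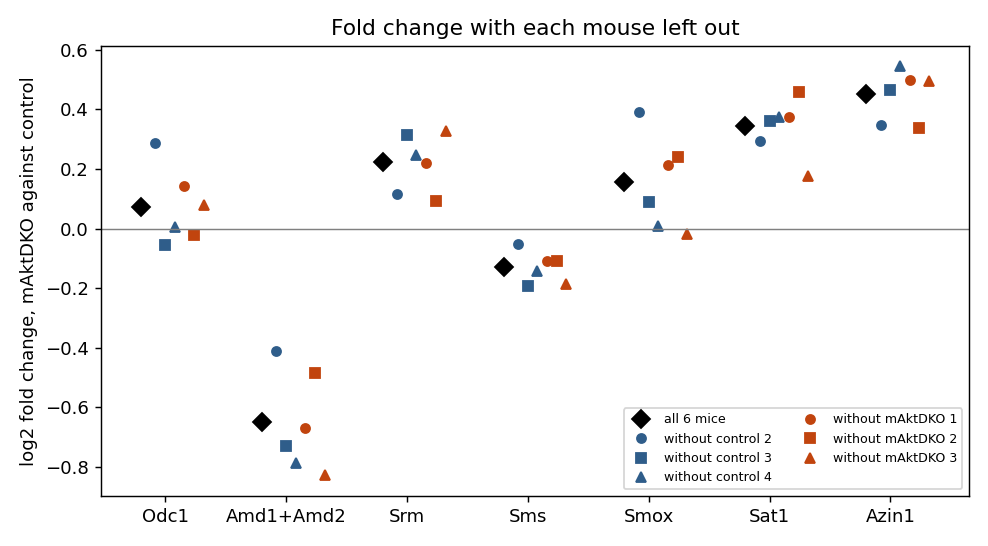
Log2 fold change of mAktDKO over control mice with all 6 mice (black diamonds) and with each mouse left out (blue, a control mouse; orange, a mAktDKO mouse), for 6 genes and the summed Amd rows. Azin1 stays between 0.34 and 0.54 and the Amd sum below -0.4, whereas Odc1 and Smox fall on both sides of 0.

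The genes with profiles most like those of Odc1, Amd1 and Smox were looked for by the root mean square distance between log2 CPM profiles over the 6 mice, each centred on its mean. For Odc1 they were Wdsub1 (0.063), Trim45 (0.067) and Ankrd26 (0.069), where the profile of Odc1 itself had an SD of 0.24. For Smox they were Impa2 (0.066), Nqo1 (0.081) and Plcd3 (0.086). For Amd1 the nearest, Gm13251, was 1.58 away, where the profile of Amd1 itself had an SD of 3.55. Among the 8 genes, the nearest pairs were Srm with Azin1 (0.16) and Odc1 with Sms (0.19). These likenesses rest on 6 mice, control mouse 2 among them, and are descriptions.

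Promoter windows were searched on both strands for CACGTG, the E-box bound by MYC family factors, and for GTAAACA, a forkhead motif whose reverse complement is TGTTTAC. The E-box was in 1 of the 7 windows of the 6 matched genes, that of Sms at offset -196 from the start, and in 7.15% of all 32851 windows. The forkhead motif was in none of the 7, and in 3.65% of all windows. Sequence more than 250 bases before or 50 bases after a start, introns among it, was not searched.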

How the data were processed

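The authors removed rRNA, made strand-specific libraries, sequenced paired-end reads of 37 bases, mapped them to mm10 with STAR and estimated gene counts with RSEM (STAR 2.6.1b and RSEM 1.3.1 per the submitters' processing notes). The deposited values are the estimated counts that the authors obtained with RSEM, without scaling, for 24411 genes. The gene annotation and the strand setting of the counting are not given in the sources used here. In this work each estimated count was rounded, genes with few counts were dropped by filterByExpr at a minimum count of 10, and the remaining 12892 genes were normalised with TMM and fitted with the quasi-likelihood method of edgeR 4.0.16 in R 4.3.3. P-values were adjusted by Benjamini-Hochberg, and a gene was called at an adjusted p under 0.01. DESeq2 1.42.0, other scalings, filters and thresholds, unrounded counts, the summed Amd rows (as an added alternative, under these settings too, chosen after seeing the data) and leaving out each mouse were tried. The steps were tested on simulated data. The 8 genes and all lists were chosen with earlier results of these data known. Named further genes are, in each role group, up to 2 tested genes with the smallest p, plus any with an adjusted p under 0.05, and Eif5a, Azin2, Oaz3, Atp13a2 and Mtap were added after their values were seen. Aldh1a1 and Grb14 are named as the other genes called. Gene positions, transcript lengths and shared 37-base windows come from GENCODE M21 (GRCm38), aligned with Biopython 1.88, and promoters from RefSeq. Control columns stand for the group. A p-value sets the difference between groups against the spread between these mice, which is estimated with information from all genes.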

Additional observations from a re-analysis of the deposited data

How the results depend on the processing

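By edgeR, 3 genes were called, and 0 to 8 with 1 mouse left out (0 without each of mAktDKO mice 1, 2 and 3, when 2441, 1871 and 2794 genes had an unadjusted p under 0.05, and 8 without control mouse 2). Akt2 had an adjusted p of 0.0165 to 0.0208 without a mAktDKO mouse. Without a filter on low counts 32 were called, at an adjusted p under 0.05 152, and by DESeq2 329 (85 higher, 244 lower). Of the 8 genes none was called in any fit, and 2 to 4 had an unadjusted p under 0.05 with 1 mouse left out. There were 4 without mAktDKO mouse 2 (beside 14.4% of all genes tested) and without control mouse 2 (19.3%). There were 3 without control mouse 4 (25.8%). Only 2 remained under 0.05 without mAktDKO mouse 1 (18.8%), mAktDKO mouse 3 (21.2%) or control mouse 3 (23.1%). Of the 25 further genes that DESeq2 tested, it called 2 (Atp13a3 and Dohh). By edgeR 22 were tested, and 22 or 23 with 1 mouse left out, when it called 0. In those fits with 1 mouse left out, 4 to 11 had an unadjusted p under 0.05. The 4 came without mAktDKO mouse 2 and the 11 without control mouse 4, the same fits with 14.4% and 25.8%. Values that changed sign were, under library totals, Sms (0.0092) and Paox (0.073) and, with the Amd rows summed, Amd1 (-0.65). With 1 mouse left out, the ranges that crossed 0 were -0.056 to 0.29 for Odc1, -0.019 to 0.39 for Smox, -0.24 to 0.12 for Paox and -0.033 to 0.35 for Sat2. The causes were not tested. Of the remaining values, 123 with 1 mouse left out and 167 under other settings kept direction and side of the threshold. The setting with an adjusted p under 0.05 used the same fit, so its directions could not change. With at least 10 counts in every mouse Amd1 could not be tested. No paired analysis was possible because the replicate numbers of the labels, which were to form the block, could not be given to the control columns, numbered 2 to 4 where the labels run from 1 to 3, and nothing in the labels says that a column number shared by a control and a mAktDKO mouse marks a pair. At 3 mice a group the intervals are wide, and a gene at 3 counts lies at 0.180 to 0.227 CPM.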

Other observations

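Genes known to be abundant in liver, chosen after their values were seen, were counted in this muscle, and they include Mat1a, the liver S-adenosylmethionine synthetase. Mat1a had 37, 20 and 9 rounded counts in mAktDKO mice 1, 2 and 3, and 41, 5 and 7 in control mice 2, 3 and 4. Albumin (Alb) had 712, 236 and 89 in the mAktDKO mice and 735, 128 and 111 in the control mice. Both genes were highest in mAktDKO mouse 1 and control mouse 2, 1 mouse of each group, and the cause was not tested.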
